A study of Saccharomyces cerevisiae with 4 samples.

Results

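The core histone genes of budding yeast lie in 4 divergent pairs, each with a single promoter region between its genes. HTA1 and HTB1 encode histones H2A and H2B, as do HTA2 and HTB2. HHT1 and HHT2 encode histone H3, and HHF1 and HHF2 encode histone H4. The pairs were located by fixed chromosome intervals around their known places, and a 150 bp window belonged to a pair when its midpoint fell in the interval. This gave 84 of 80474 nuclear windows. HTA2-HTB2 had 22 of them (chromosome 2, 234451 to 237750), HHF1-HHT1 had 20 (chromosome 2, 254551 to 257550), HTB1-HTA1 had 21 (chromosome 4, 913501 to 916650) and HHT2-HHF2 had 21 (chromosome 14, 574801 to 577950). In each name the left gene on the chromosome comes first. The positions are in the coordinates of the deposited files, whose genome build the sources used here do not name, and they may be off by under 100 bp.

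The data are ChIP-seq libraries from strain BY4741, a standard laboratory yeast, grown in the rich medium YPD to mid-log phase. One antibody recognises H3 with a phosphate on threonine 45 (H3T45p), the other the C-terminal end of H3 with or without it. Each was used on cells given 200 mM hydroxyurea for 2 h and on untreated cells. Each of the 4 groups (H3T45p in hydroxyurea, H3T45p in untreated cells, H3 in hydroxyurea, H3 in untreated cells) held 1 library, so no difference has a replicate check and no test of the conditions is possible. The libraries held 23588153 reads for H3T45p in hydroxyurea, 25105783 for H3T45p in untreated cells, 28690293 for H3 in hydroxyurea and 27319637 for H3 in untreated cells.

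Yeast makes its core histones mainly in S phase, when new DNA has to be packed into nucleosomes. The transcription factors SBF and Spt10 activate the histone promoters. The HIR complex, together with the histone chaperones Asf1 and Rtt106, represses them outside S phase and when replication is blocked, at every pair except HTA2-HTB2. Hydroxyurea inhibits ribonucleotide reductase, stalls replication forks and is known to lower histone mRNA. Cdc7, the kinase named in the title of the series, starts replication at origins, and threonine 45 lies in the H3 protein near the place where DNA enters the nucleosome.

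Each pair was divided by the distance of the window midpoint from the centre of its interval. The promoter took the windows within 300 bp, the body of each gene those beyond 300 and up to 800 bp on its side, and the flanks the rest. There were 16 promoter, 27 body and 41 flank windows, with 4 promoter windows at each pair. The deposited signal is a read count per window divided by a factor for each library, and over nuclear windows its median was 283 for H3T45p in hydroxyurea and 289 in untreated cells, and 277 for H3 in hydroxyurea and 280 (279.6) in untreated cells. All 84 windows held at least 50 reads over the 4 libraries, the lowest total being 198, and a single library had between 39 and 1356 reads in a window. Changes are log2 of hydroxyurea over untreated. The 95% intervals beside them are exact binomial (Clopper-Pearson) on reads for a ratio of a pair of libraries, and normal on the log scale for values from more counts. They cover counting error only, since each group held 1 library, and they treat reads as independent. Where reads are not independent molecules, the intervals are too narrow even for counting error.

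**Figure D1:**
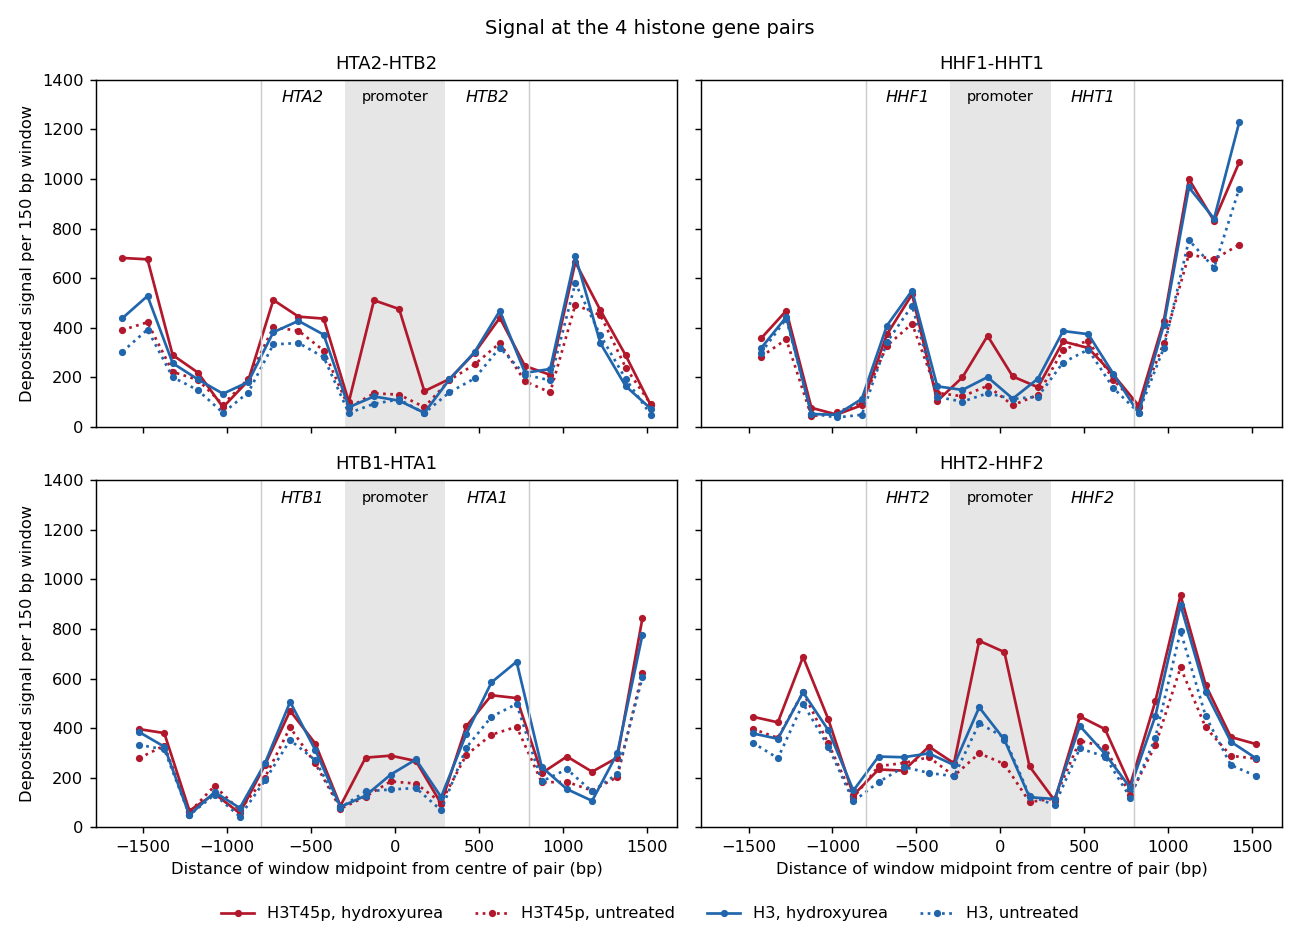
Deposited signal per 150 bp window (y axis) against the distance of the window midpoint from the centre of each pair in bp (x axis), for H3T45p in red and H3 in blue, in hydroxyurea (solid) and untreated cells (dotted), 1 library each. Grey marks the promoter and thin lines the outer edge of the bodies. The solid red line peaks in the inner promoter windows of HTA2-HTB2 (511) and HHT2-HHF2 (752), and at HHF1-HHT1 and HTB1-HTA1 it lies above the solid blue line in part of the promoter only.

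H3T45p was higher in hydroxyurea at the promoters of all 4 histone gene pairs, and the H3 change there was smaller at each pair. The mean H3T45p signal of the promoter windows was 2.91-fold that of untreated cells at HTA2-HTB2, 2.27-fold at HHT2-HHF2, 1.84-fold at HHF1-HHT1 and 1.59-fold at HTB1-HTA1. For H3 the folds were 1.15, 1.09, 1.39 and 1.40 in the same order of pairs. In none of the 8 gene bodies was H3T45p or H3 higher by 0.5 or more on the log2 scale. Over runs of 4 neighbouring windows in the rest of the nuclear genome 9.02% were for H3T45p and 3.44% for H3, so that a count of 0 among 8 is near this background. The regions of the pairs lay higher, since of single windows within 20 kb of them 30.3% were for H3T45p and 24.1% for H3.

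HTA2-HTB2 is the pair that lies outside HIR control. From left to right, its 4 promoter windows (chromosome 2, 235801 to 236400) had H3T45p signals of 101, 511, 476 and 145 in hydroxyurea, against 78.0, 136, 131 and 80.0 (79.95) in untreated cells. Their H3 signals were 79.7, 123, 106 and 57.1 in hydroxyurea, against 56.1, 93.5, 111 and 56.1 in untreated cells. H3T45p was thus higher in hydroxyurea in each window, by far the most in the inner windows. H3 was higher in the left windows and near its untreated level in the right ones. H3T45p averaged 308 in hydroxyurea and 106 in untreated cells, a change of 1.54 (95% 1.38 to 1.70), and H3 averaged 91.5 in hydroxyurea and 79.3 in untreated cells, a change of 0.21 (-0.01 to 0.42). The inner windows, from 235951 to 236250, form a peak in the authors' hydroxyurea list, with H3T45p 4.15 and 4.49 times H3 in hydroxyurea, against 1.45 and 1.17 times in untreated cells.

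HHT2-HHF2 encodes H3, the protein that carries threonine 45, and H4. Its promoter windows (chromosome 14, 576001 to 576600) had H3T45p signals of 258, 752, 707 and 246 in hydroxyurea, against 208, 298, 255 and 102 in untreated cells. Their H3 signals were 251, 484, 353 and 121 in hydroxyurea, against 206, 419, 362 and 127 in untreated cells. The 3 windows from 576151 on had more than 2 times their untreated H3T45p, and their H3 lay near its untreated level. H3T45p averaged 491 in hydroxyurea and 216 in untreated cells, a change of 1.18 (95% 1.07 to 1.30), and H3 changed by 0.12 (0.0027 to 0.23).

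HHF1-HHT1, the other pair for H4 and H3, showed the same form at a lower height. Its promoter windows (chromosome 2, 255751 to 256350) had H3T45p signals of 200.3, 368, 204 and 160.4 in hydroxyurea, against 124, 166, 87.8 and 129.7 in untreated cells. Their H3 signals were 149.5, 201, 114 and 195 in hydroxyurea, against 102, 136, 113 and 122 in untreated cells. The inner windows carried most of the H3T45p difference, and H3 was higher in hydroxyurea in all but the third window, which was at its untreated level. H3T45p changed by 0.88 (95% 0.72 to 1.04) over the promoter and H3 by 0.48 (0.31 to 0.65).

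HTB1-HTA1, the other pair for H2B and H2A, had the smallest difference. Its promoter windows (chromosome 4, 914851 to 915450) had H3T45p signals of 281, 289, 267 and 95.6 in hydroxyurea, against 124, 185, 176 and 100.4 in untreated cells. Their H3 signals were 128, 213, 274 and 122 in hydroxyurea, against 145, 153, 159 and 68.9 in untreated cells. Only the leftmost window had higher H3T45p with no gain of H3, while the others gained H3, the rightmost with no gain of H3T45p. Over the promoter H3T45p changed by 0.67 (95% 0.52 to 0.83) and H3 by 0.49 (0.33 to 0.65).

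**Figure D2:**
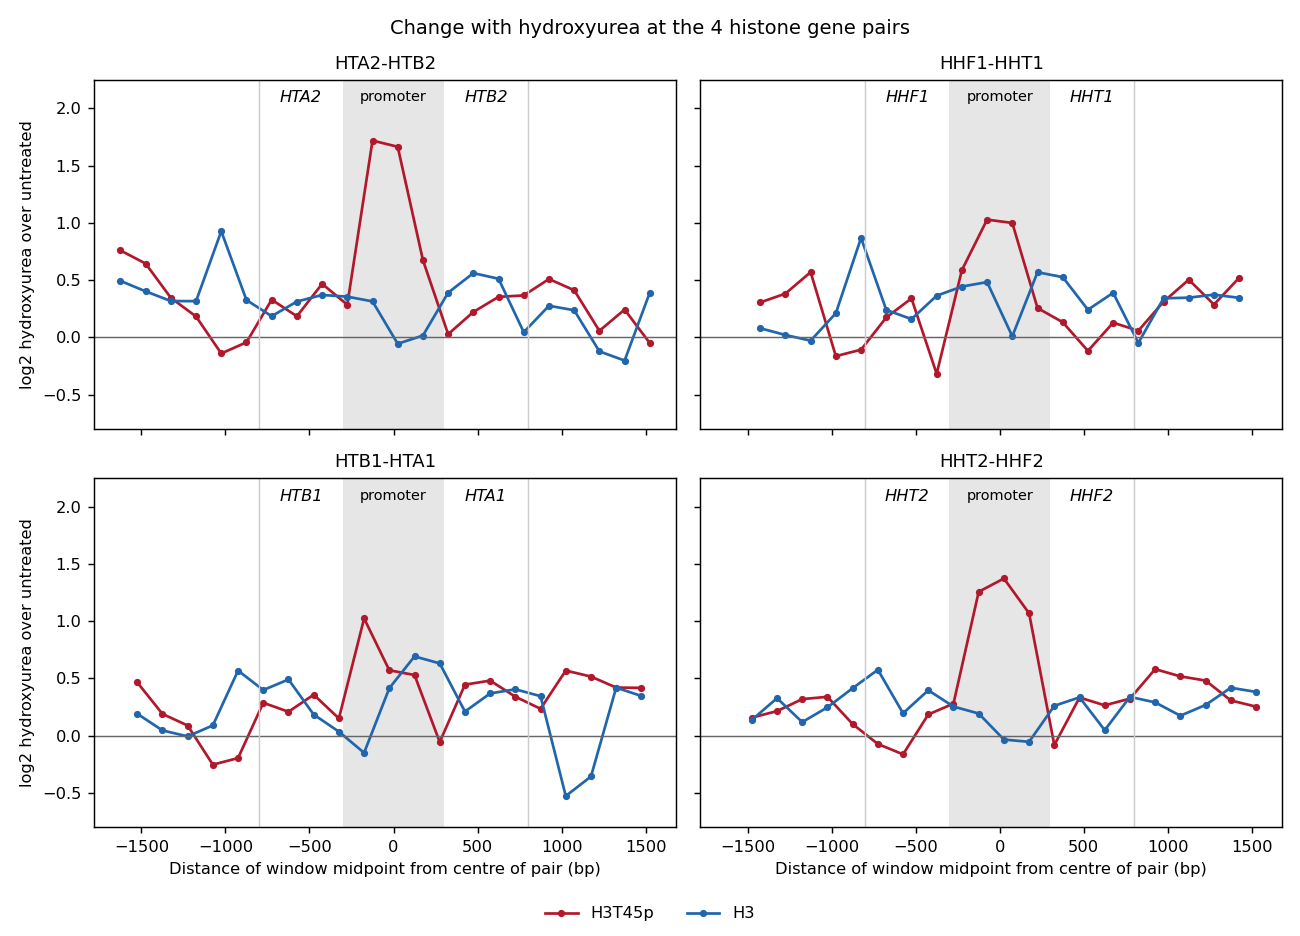
Log2 of hydroxyurea over untreated per window, with 28.3 added to each signal (y axis), against distance from the centre of each pair in bp (x axis), for H3T45p in red and H3 in blue, 1 library per group. H3T45p has its highest value in the promoter at each pair, 1.72 at HTA2-HTB2, 1.03 at HHF1-HHT1, 1.02 at HTB1-HTA1 and 1.37 at HHT2-HHF2, and H3 shows no such maximum there except at HTB1-HTA1.

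The promoters were set against runs of 4 windows (600 bp) over the rest of the nuclear genome. Of 19465 runs, 9.02% had an H3T45p change of 0.5 or more, as had 4 of the 4 promoters. Among the 7734 runs whose untreated H3 signal lay between those of the promoters (79.3 to 279), the share was 3.87%, and their median change was -0.11. The H3T45p change at HTA2-HTB2 was reached or passed by 0.0771% of all runs, that at HHT2-HHF2 by 0.257%, that at HHF1-HHT1 by 0.853% and that at HTB1-HTA1 by 3.02%. For the H3 change, where 3.44% of runs were at 0.5 or more, 0 of the 4 promoters were. The H3 change at HTB1-HTA1 (0.489) and HHF1-HHT1 (0.478) lay just under that size and was reached or passed by 3.80% and 4.16% of all runs, while those at HTA2-HTB2 and HHT2-HHF2 were reached or passed by 20.9% and 30.6%.

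**Figure D3:**
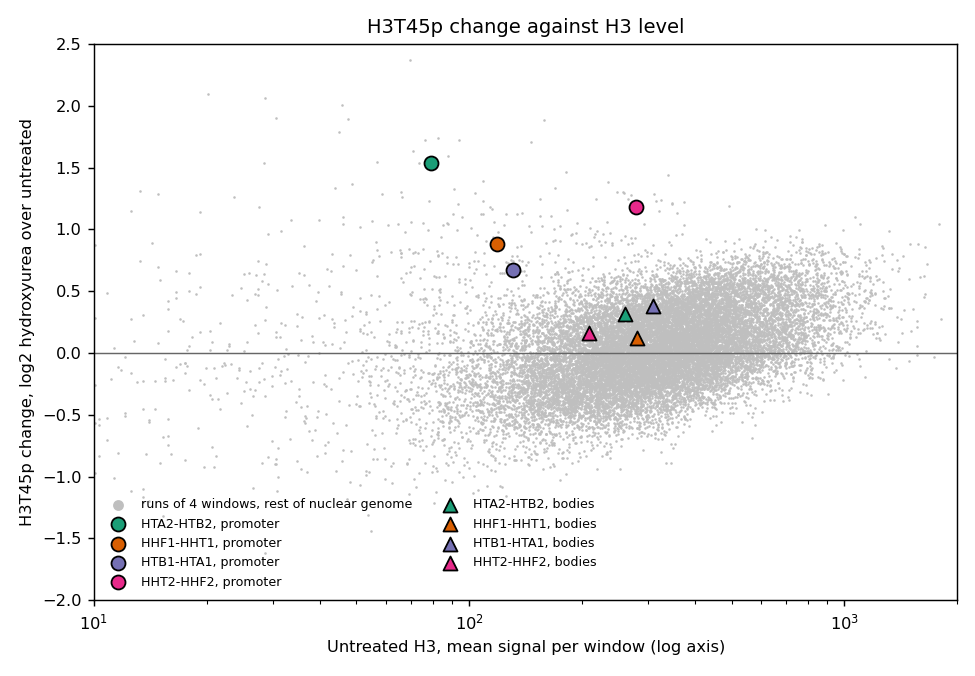
H3T45p change, log2 of hydroxyurea over untreated (y axis), against the untreated H3 signal on a log axis (x axis). Grey points are runs of 4 windows over the rest of the nuclear genome (19395 within the axes, 70 outside), circles the 4 promoters and triangles the bodies of each pair, with a colour for each pair. The promoters of HTA2-HTB2 and HHT2-HHF2, at 1.54 and 1.18, lie above nearly all runs with a like H3 signal, and the bodies lie between 0.12 and 0.38, inside the cloud.

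The pairs were compared with each other in 6 comparisons of promoters. The H3T45p change at HTA2-HTB2 was above that at HHT2-HHF2 by 0.35 (95% 0.16 to 0.55), above HHF1-HHT1 by 0.66 (0.43 to 0.89) and above HTB1-HTA1 by 0.87 (0.65 to 1.09). HHT2-HHF2 was above HHF1-HHT1 by 0.31 (0.11 to 0.50) and above HTB1-HTA1 by 0.51 (0.32 to 0.70). HHF1-HHT1 and HTB1-HTA1 differed by 0.21 (-0.01 to 0.43), so the order of these neighbours is within counting error, and it turned to -0.04 with centres moved 100 bp to the right and to -0.09 with a wider promoter segment. The difference between HTA2-HTB2 and HHT2-HHF2 also depended on the processing, since it was 0.24 and 0.04 with pseudocounts of 10% and 50% of the median signal, 0.08 with centres moved right, 0.14 with the wider promoter and 0.09 from the mean of window values. The other differences kept their sign under the 11 alternatives, with a lowest value of 0.13, for HHT2-HHF2 over HHF1-HHT1 with the median of windows of like untreated H3 subtracted. The H3 change ordered the pairs otherwise. HTB1-HTA1 and HHF1-HHT1 differed by 0.01 (-0.22 to 0.24), as did HTA2-HTB2 and HHT2-HHF2 by 0.09 (-0.15 to 0.33), and HHF1-HHT1 and HTB1-HTA1 stood above HHT2-HHF2 by 0.36 (0.16 to 0.56) and 0.37 (0.18 to 0.57).

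The promoter was then compared with the bodies of the same pair. In untreated cells H3 at the promoter was 30.5% of the body level at HTA2-HTB2, 42.3% at HHF1-HHT1 and 42.6% at HTB1-HTA1, but 134% at HHT2-HHF2, whose promoter windows at 576151 and 576301 carried more H3 than its genes. In hydroxyurea the H3 percentages were 27.1%, 47.2%, 46.3% and 115% in that order. H3T45p at the promoter was 83.8% of the body level in hydroxyurea and 36.0% in untreated cells at HTA2-HTB2, and 74.1% in hydroxyurea and 43.9% in untreated cells at HHF1-HHT1. It was 62.6% in hydroxyurea and 51.1% in untreated cells at HTB1-HTA1, and 179.9% in hydroxyurea and 88.4% in untreated cells at HHT2-HHF2. The dip of H3T45p over the promoters was thus shallower in hydroxyurea at 3 pairs, and at HHT2-HHF2 the promoter passed its bodies.

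The H3T45p change at the promoter exceeded that of the bodies by 1.22 (95% 1.04 to 1.40) at HTA2-HTB2, by 1.02 (0.87 to 1.18) at HHT2-HHF2, by 0.75 (0.57 to 0.94) at HHF1-HHT1 and by 0.29 (0.12 to 0.47) at HTB1-HTA1. The same difference for H3 was -0.17 (-0.40 to 0.06) at HTA2-HTB2, -0.22 (-0.37 to -0.07) at HHT2-HHF2, 0.16 (-0.03 to 0.35) at HHF1-HHT1 and 0.12 (-0.06 to 0.30) at HTB1-HTA1. The H3T45p difference was therefore larger than counting error at every pair, and the H3 difference at HHT2-HHF2 alone, where it ran the other way.

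**Figure D4:**
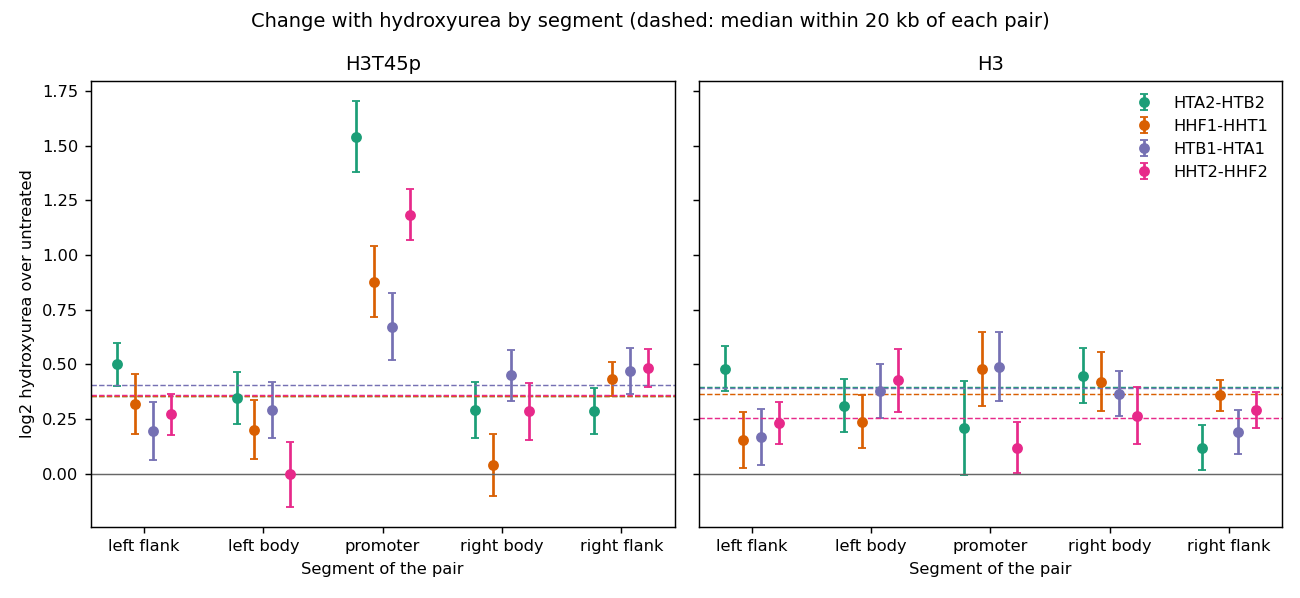
Log2 of hydroxyurea over untreated (y axis) in the 5 segments of each pair (x axis), for H3T45p on the left and H3 on the right, with a colour for each pair, 1 library per group. Bars are 95% counting intervals. Dashed lines are the median of windows within 20 kb of each pair, with 28.3 added to each window signal. H3T45p stands out at the promoters, at 0.67 to 1.54, and H3 lies between 0.12 and 0.49 in all segments.

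In the gene bodies H3 lay near the level of the chromosome region. H3T45p lay well below that level at HHF1-HHT1 and HHT2-HHF2. At HTA2-HTB2 and HTB1-HTA1 it lay only slightly below, about as near to the level of the region as H3 did. Over 825 windows within 20 kb of the pairs but outside them, H3T45p had a median change of 0.37 and H3 one of 0.34, both above the median over all nuclear windows (0.0086 and -0.01). H3 over the bodies changed by 0.38 at HTA2-HTB2, 0.32 at HHF1-HHT1, 0.37 at HTB1-HTA1 and 0.34 at HHT2-HHF2, where the medians of the surroundings were 0.40, 0.36, 0.39 and 0.26. H3T45p over the bodies changed by 0.32, 0.12, 0.38 and 0.16 in the same order, where the surroundings had 0.35, 0.35, 0.40 and 0.36. The values of the surroundings are from windows with 28.3 added to each signal, while those of the bodies have no pseudocount. As the mean of window values with 28.3 added, the bodies had 0.28, 0.06, 0.32 and 0.11 for H3T45p. For H3 this mean was 0.34, 0.32, 0.30 and 0.31. The regions of the pairs on chromosome 2, whose intervals lie 16.7 kb apart, overlap. With the regional median subtracted, the H3T45p change at the promoters was 1.19 at HTA2-HTB2, 0.82 at HHT2-HHF2, 0.52 at HHF1-HHT1 and 0.27 at HTB1-HTA1, so that the last fell short of 0.5. The H3 change lay between -0.19 and 0.11. These promoter values had no pseudocount, unlike the regional medians. With a pseudocount of 10% of the median signal, the H3T45p change before subtraction was 1.32, 1.09, 0.75 and 0.58 in the same order. On that measure HHF1-HHT1 would fall short of 0.5 as well. No input library is among the 4, so the number of DNA copies and the amount of histone per copy cannot be told apart, nor can more cells with the mark and more of it in each cell.

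The genes differed little from each other in H3 and more in H3T45p. For the H2A genes, HTA1 had a mean H3T45p signal of 487 in hydroxyurea and 357 in untreated cells, a change of 0.45 (95% 0.33 to 0.57), and HTA2 had 465 in hydroxyurea and 366 in untreated cells, a change of 0.34 (0.23 to 0.46). Among the H2B genes, HTB1 and HTB2 changed by 0.29 (0.16 to 0.42) and 0.29 (0.16 to 0.42). For the H4 genes the changes were 0.29 (0.16 to 0.42) at HHF2 and 0.20 (0.07 to 0.34) at HHF1. With libraries scaled by nuclear reads, which moves each H3T45p change by -0.13, these 6 genes stood between 0.07 (-0.07 to 0.20), at HHF1, and 0.32 (0.20 to 0.43), at HTA1, and the H3 genes stood at -0.09 (-0.23 to 0.05) for HHT1 and -0.14 (-0.28 to 0.01) for HHT2.

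The H3 genes had the smallest H3T45p changes of the 8, with 0.04 (95% -0.10 to 0.18) at HHT1 and -0.0026 (-0.15 to 0.15) at HHT2. HHT1 had a mean H3T45p signal of 291 in hydroxyurea and 283 in untreated cells, and HHT2 had 262 in hydroxyurea and 263 in untreated cells. Their H3 was higher in hydroxyurea like that of the other genes, by 0.42 (0.28 to 0.56) at HHT1 and 0.43 (0.28 to 0.57) at HHT2. H3T45p over H3 was thus lower in hydroxyurea in both bodies, by -0.38 (-0.58 to -0.19) at HHT1 and -0.43 (-0.63 to -0.22) at HHT2, while at the other 6 genes it changed by between -0.16 and 0.08. The paralogous genes have similar coding sequences, and how reads with several matches were placed is stated in none of the sources used here, so values of a single body may hold reads of its paralog.

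H3T45p over H3 was next read within each treatment. In hydroxyurea the log2 ratio at the promoter was 1.75 (95% 1.58 to 1.92) at HTA2-HTB2, 0.70 (0.59 to 0.80) at HHT2-HHF2, 0.498 (0.35 to 0.64) at HHF1-HHT1 and 0.34 (0.20 to 0.48) at HTB1-HTA1. Thus 2 of the 4 promoters were at 0.5 or more, as were 4.52% of runs of 4 windows. In untreated cells the ratios were 0.42 (0.21 to 0.63), -0.37 (-0.50 to -0.24), 0.098 (-0.08 to 0.28) and 0.16 (-0.01 to 0.33) in the same order of pairs. None of these reached 0.5 in either direction, as 2.05% of runs did upward and 4.71% downward. HHT2-HHF2 was the pair with less H3T45p than H3 at its untreated promoter, and 88.6% of all runs had a ratio at least as high. Among the runs with untreated H3 between 79.3 and 279 the share was 99.0%. This promoter sets the upper edge of that range, so these runs had no more H3 than it. Their median ratio was 0.13, against -0.04 over all runs.

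The ratio changed by 1.33 (95% 1.07 to 1.60) at the HTA2-HTB2 promoter and by 1.07 (0.90 to 1.23) at HHT2-HHF2, values that differ by 0.27 (-0.05 to 0.58). It changed by 0.40 (0.17 to 0.63) at HHF1-HHT1 and by 0.18 (-0.04 to 0.40) at HTB1-HTA1. With libraries scaled by their nuclear reads, which moves every change of the ratio by -0.18, the value at HTB1-HTA1 came to -8.4e-06, and with a wider promoter segment, taking in the next window on each side, that at HHF1-HHT1 came to 0.03. Of the 4 promoters 2 were at 0.5 or more, as were 10.1% of runs. In the bodies of the 4 pairs together the ratio changed by between -0.20 and 0.0072.

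**Figure D5:**
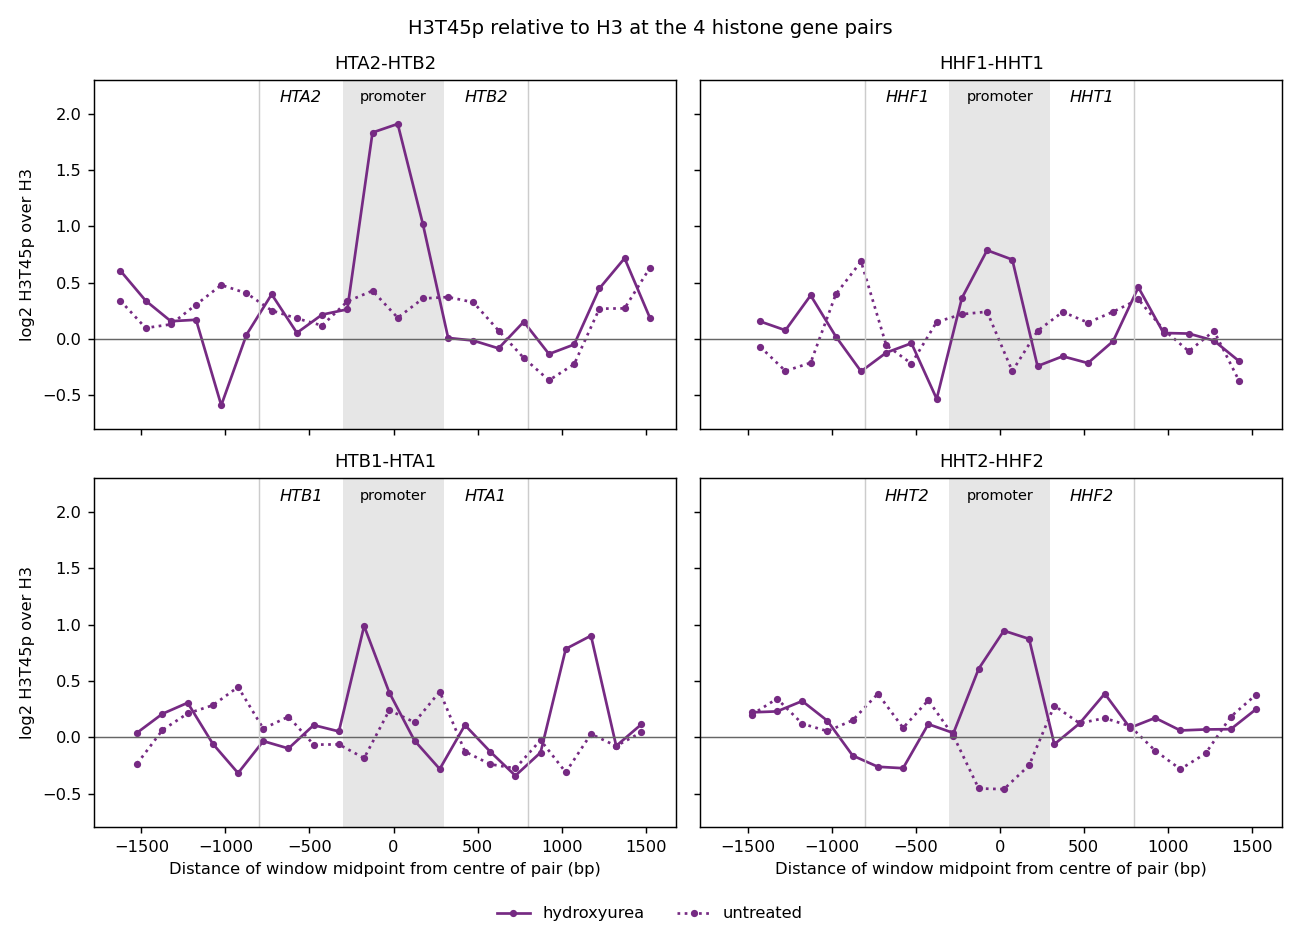
Log2 of H3T45p over H3 per window, with 28.3 added to each signal (y axis), against distance from the centre of each pair in bp (x axis), in hydroxyurea (solid) and untreated cells (dotted), 1 library per group. The ratio in hydroxyurea has its maximum in the promoter at each pair, at 1.91, 0.79, 0.99 and 0.95 for HTA2-HTB2, HHF1-HHT1, HTB1-HTA1 and HHT2-HHF2, and the untreated ratio at HHT2-HHF2 has its minimum of -0.46 at the same place.

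Window by window, the promoters held the H3T45p differences of the pairs, apart from a share that the surroundings also showed. With 28.3 added to each signal, the H3T45p change was 0.5 or more in 22 of the 84 windows, against 8.99% of all nuclear windows and 30.3% of the windows within 20 kb. They were 12 of 16 promoter windows (3 at each pair), 0 of 27 body windows and 10 of 41 flank windows. The flank share is thus near that of the surroundings, the body share is below it and the promoter share is above it. It was -0.5 or less in 0 of the 84 windows, against 6.94% of nuclear windows. The H3 change was 0.5 or more in 10 windows, against 4.26% of nuclear windows and 24.1% within 20 kb, and -0.5 or less in 1, against 7.16% of nuclear windows.

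For the ratio in hydroxyurea, 13 windows were at 0.5 or more (9 in promoters and 4 in flanks), against 5.64% of nuclear windows, and 2 at -0.5 or less, against 2.76%. In untreated cells 2 windows were at 0.5 or more, against 4.00%, and 0 at -0.5 or less, against 5.77%. The change of the ratio was 0.5 or more in 12 windows, of which 9 lay in promoters, against 11.6% of nuclear windows, and -0.5 or less in 6, against 9.08%. The total of 12 is near the share of the genome, and what differs is where in the pairs these windows lie.

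Windows poor in H3 just beyond the left gene gained H3 without H3T45p at 3 pairs, a pattern chosen after its values were seen. At HTA2-HTB2 the window from 235051 had an H3 signal of 134 in hydroxyurea and 57.1 in untreated cells, and an H3T45p signal of 79.7 in hydroxyurea and 90.7 in untreated cells. At HHF1-HHT1 the window from 255151 had 113 and 49.2 for H3 and 87.6 and 96.5 for H3T45p, and at HTB1-HTA1 the window from 914101 had 77.9 and 43.3 for H3 and 56.9 and 69.2 for H3T45p, in hydroxyurea and untreated cells in that order. These are the windows with the lowest change of the ratio at their pairs, at -1.07, -0.98 and -0.76. Their untreated H3 rests on few reads (58, 50 and 44) and lies under 25% of the genome median. With H3 of at least that level required, the windows of the pairs with a change of the ratio of -0.5 or less fell from 6 to 2, and these windows were not among them.

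The right flank of HTB1-HTA1, toward ADK1 in RefSeq's gene order, the gene for adenylate kinase, held the only window of the pairs with H3 lower by 0.5 or more. From 916051 H3 had a signal of 154 in hydroxyurea and 234 in untreated cells, with H3T45p at 286 in hydroxyurea and 183 in untreated cells. The next window had H3 signals of 107 in hydroxyurea and 145 in untreated cells, and H3T45p signals of 224 in hydroxyurea and 148 in untreated cells. This place thus had more H3T45p and less H3 in hydroxyurea.

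The authors called 630 peaks in hydroxyurea and 87 in untreated cells, and 1 of these, the hydroxyurea peak of 300 bp in the HTA2-HTB2 promoter, overlapped a histone pair. The nearest hydroxyurea peaks lay 3.1 kb from HHF1-HHT1, 3.75 kb from HTB1-HTA1 and 4.8 kb from HHT2-HHF2, and the nearest untreated peaks 66.2 to 485 kb from the pairs. Windows of the hydroxyurea peaks had H3T45p at 2.0248 times H3 or more, and 1089 nuclear windows outside the peaks were at or above the same lowest value. Among the windows of the pairs outside the peak, 4 had a ratio of 2 or more in hydroxyurea. They were 2.53 from 236251 at HTA2-HTB2, 2.20 from 914851 and 2.096 from 916201 at HTB1-HTA1, and 2.0242 from 576451 at HHT2-HHF2. The promoter of HHT2-HHF2 was outside the list. Its inner windows had H3T45p signals of 752 and 707 in hydroxyurea, higher than in the called peak. Their H3T45p was 1.55 and 1.9995 times H3, however. These ratios, and that of 2.0242 from 576451, lay below the lowest value in the peaks (2.0248).

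The form of the signal over a whole pair was also found at some other places in the genome. Over 84 values (21 windows in 4 libraries, which share libraries and neighbouring positions) the profile of each pair had a Pearson correlation of 0.38 to 0.49 with the mean of the other 3. Of 79990 other stretches of the genome, 874 to 4735 came closer to that mean, so most were less like it than the pair was. The stretches overlap one another, so a place can be counted more than once. The stretches most like the mean of the 4 pairs lay on chromosome 16 from 293101 to 296250 (0.76), on chromosome 13 between 296701 and 299850 (0.76), and on chromosome 9 between 428101 and 431250 (0.75). In their central 3 windows H3T45p changed by 0.31, -0.09 and 0.02, so they share the spacing of dense and poor windows and not the promoter difference.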

How the data were processed

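H3T45p and H3 ChIP-seq libraries of BY4741 yeast, in hydroxyurea and untreated, were grouped by their titles, 1 library per group. The authors deposited a signal per 150 bp window. Dividing by the smallest value above 0 of a library gave whole reads for 100% of values (within 0.001 of a read). The submitters' processing notes name BWA 0.5.9-r16 and also DESeq, with no role. The authors' peak lists give positions without a score. Values were computed with Python 3.11.15, numpy 2.4.6, pandas 2.3.3 and scipy 1.17.1.

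Segment values are log2 ratios of mean signals without a pseudocount. Medians within 20 kb are of window values, also where they are subtracted from segment values. Window values have 28.3 added (10% of the median over the 4 libraries), need 50 reads in total, and count as changed at 0.5 on the log2 scale. With 1 library per group no test or count model was run. The calculation of ratios and intervals was tested on simulated data. The named genes are the 8 members, with the 3 most alike stretches. The members, lists and rules were chosen with earlier results of these data known. Gene positions, sequences, other histone genes and their regulators and other divergent promoters were not analysed here, and the authors' difference tracks were not used here.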

Additional observations from a re-analysis of the deposited data

How the results depend on the processing

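The H3T45p change at the promoters stayed above 0 at all 4 pairs under the 11 alternatives, between 0.86 and 1.73 at HTA2-HTB2, 0.82 and 1.38 at HHT2-HHF2, 0.48 and 1.08 at HHF1-HHT1 and 0.27 and 0.84 at HTB1-HTA1. Averaged over the pairs it was 1.07, and it moved to 0.94 and 0.64 with pseudocounts of 10% and 50% of the median signal, 0.94 with scaling by nuclear reads (a shift of -0.13), 1.22 with the median of windows of like untreated H3 subtracted, 0.96 with centres moved 100 bp to the right, 1.19 and 0.86 with a narrower and a wider promoter segment, 0.83 from the mean of window values, and 0.70 with the 20 kb median subtracted. The mean H3 change, 0.32, was 0.16 with the pseudocount of 50% and -0.029 with the 20 kb median subtracted. The mean ratio in hydroxyurea, 0.82, was 0.72 and 0.49 with the pseudocounts of 10% and 50%, 0.71 with centres moved right, 0.94 and 0.63 with the narrower and wider promoters, and 0.64 from window values. The mean ratio in untreated cells, 0.08, was 0.21 with scaling by nuclear reads and -0.11 with like H3 subtracted. The mean change of the ratio, 0.74, was 0.47 with the pseudocount of 50%, 0.56 with scaling by nuclear reads, 0.97 with like H3 subtracted, 0.62 with centres moved right, 0.91 and 0.52 with the narrower and wider promoters, and 0.57 from window values. The cause of these shifts was not tested.

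Of the counts of windows, those at an H3T45p change of 0.5 or more went to 10 with the pseudocount of 50% and 7 under a size rule of 1.0. Those at an H3 change of 0.5 or more went to 6 with H3 of at least 25% of the genome median, and to 0 with the pseudocount of 50% and under the rule of 1.0, as did the 1 window at -0.5 or less. For the ratio in hydroxyurea, 3 windows passed the rule of 1.0 upward, and downward the count was 1 with the H3 minimum and 0 under the others. The 2 windows upward in untreated cells fell to 0 under each of these settings. For the change of the ratio, 7 passed the rule of 1.0 upward, and downward the counts were 2 with the H3 minimum, 1 with the pseudocount of 50% and 1 under the rule of 1.0. No paired analysis was possible because the groups share fewer than 2 replicate numbers and each holds 1 library; the numbers in the titles go with the treatment, so a batch and the treatment cannot be told apart. Windows of 150 bp and positions off by under 100 bp limit where a promoter ends.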
